A study of Drosophila melanogaster with 2 samples.

Results

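The Apterous cluster is a small group of neurons that a thoracic neuroblast lineage makes late in the Drosophila embryo, and 9 genes that specify its neurons or mark their final state were followed here: sqz, nab, kn, ap, eya, dac, dimm, Nplp1 and FMRFa. They were named from what is known of the cascade in which castor acts, not from measured values. Earlier results of these data were, however, known when they were chosen. They make up 9 of 13968 protein-coding genes on the chromosome arms. All 9 were found in the Ensembl annotation of assembly dm6. Castor occupancy at these genes was read from lists of peaks, that is, regions enriched by chromatin immunoprecipitation and sequencing. An entry was taken for a gene when its summit lay in the gene body or within 10 kb of it.

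The study has 1 group, Drosophila melanogaster embryos of a transgenic cas-GFP strain collected between 0 and 24 hours of development, with 2 biological replicates. A fusion of castor with enhanced green fluorescent protein was pulled down with an antibody against the fluorescent protein. The labels name an insertion directed at cas, but what drives the fusion and whether the untagged gene was also present stand in none of the sources used. Whole embryos of all stages and tissues went into each library, so an entry averages over cells with and without castor, and few of those cells belong to the Apterous cluster. There is no untagged or other control group among the samples, input libraries were not analysed here, and no comparison between conditions exists.

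Castor is a zinc-finger transcription factor that neuroblasts express late in their temporal series. As background, castor opens the window in which the cluster is made and lies upstream of kn, sqz, nab and the next temporal factor, grh. The gene kn (collier) encodes a COE-family factor that first switches on ap and eya, and it stays on in the Nplp1 neuron, while sqz and nab turn it off in the neuron that will make FMRFa. The LIM-homeodomain factor Apterous and its partner Eyes absent then act with dimm, which gives neurons their peptide-secreting character, dac takes part in the FMRFa neuron, and a BMP signal from the axon's target completes FMRFa expression.

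Of the 9 genes, 3 had a peak in the conservative thresholded list, the main list built from both replicates. These were sqz, kn and eya, with 1 peak each, against 40.8% of all protein-coding genes with such a peak. The genes of the cluster are long, with a median body of 10.4 kb against 2.16 kb over all genes, and among the genes of at least that length the share with a peak was 48.2%. A count of 3 in 9 is not above either background and is no result about the cascade. The pooled thresholded list, the other list made from both replicates, added dac and FMRFa and so had 5 genes with 5 peaks, against 45.3% of all genes. The list of replicate 1 alone had 2 peaks, at sqz and FMRFa (31.0% of all genes had one), and that of replicate 2 had 3 peaks, 2 at sqz and 1 at kn (30.8% of all genes). Over all 4 thresholded lists the peaks formed 6 distinct regions, and nab, ap, dimm and Nplp1 had none.

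None of these peaks lay within one of the 9 gene bodies, where 6.13% of all genes had a conservative peak. None lay within 500 bp of a start of one of the 9 genes either, which was so for 10.7% of all genes. Most of the summits lay instead close to starts of neighbouring genes. In the pooled list 4 of the 5 summits lay 51 to 67 bp upstream of the start of another gene: Nsun5 beside sqz, BEAF-32 beside kn, Tpr2 beside dac and Etf-QO beside FMRFa. Over all peaks of the pooled list, 20% lay 1 to 100 bp upstream of the nearest protein-coding start. In the conservative list these were 2 of the 3 peaks, against 20.4% of all its peaks. Both counts are too small to read as a difference from all peaks. The eya peak alone had a start of its own gene as the nearest protein-coding start, 3460 bp away.

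The DNA under 3 of these summits is printed to show the contrast between the peaks and the strongest signal inside a gene body. Each line gives a summit base and the 50 bases on either side of it, on the plus strand of dm6, with capitals for the fixed words TATCGA and ATTTTA where a script found them on either strand. The sqz region is chr3R:19162310-19162410, the eya region chr2L:6526999-6527099 and the dac region chr2L:16491439-16491539, all 3 intergenic. The last line, chr2L:16473374-16473474, lies in a coding exon of dac, at an entry that passed no threshold.
sqz, upstream of Nsun5: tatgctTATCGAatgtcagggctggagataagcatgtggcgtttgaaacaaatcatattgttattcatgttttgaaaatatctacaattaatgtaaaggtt
eya, past its 3′ end: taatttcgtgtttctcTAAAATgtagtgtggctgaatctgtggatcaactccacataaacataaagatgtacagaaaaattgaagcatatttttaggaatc
dac, upstream of Tpr2: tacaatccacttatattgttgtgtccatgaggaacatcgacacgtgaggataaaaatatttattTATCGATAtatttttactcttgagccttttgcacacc
dac, coding exon: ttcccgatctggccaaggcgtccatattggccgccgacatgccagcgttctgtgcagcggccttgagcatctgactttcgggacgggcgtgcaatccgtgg

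The peaks at sqz, kn and eya were rich in A and T, each with 31.7% G and C in these windows. The mean over all conservative peaks was 35.3% ± 10.6 (SD over 1879 windows), and over the ranked entries that passed no threshold it was 47.3% ± 9.58 (SD over 102664 windows). The dac region beside Tpr2 had 33.7% and the FMRFa region 43.6%, while the region beside CG11779 near sqz was rich in G and C, with 61.4%, as was the coding exon of dac, with 62.4%. The 4 words searched, on both strands, were a run of T (TTTTTT), the word ATTTTA, and the words TATCGA and CGATAG, which can overlap in a longer run. TATCGA was found in the sqz and dac windows, in 9.53% of all conservative peaks and in 3.49% of the ranked entries below their threshold. ATTTTA was found in the eya and kn windows and in 31.5% of all conservative peaks. The kn window also held TTTTTT, as did 26.1% of the conservative peaks, and the FMRFa window held none of the 4 words. The region beside CG11779, which is in neither combined thresholded list, held CGATAG. So did 6.97% of the conservative peaks and 2.47% of the ranked entries below their threshold. In windows of 51 bases in all, the TATCGA of dac and this CGATAG were the words left at the 6 regions.

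**Figure D1:**
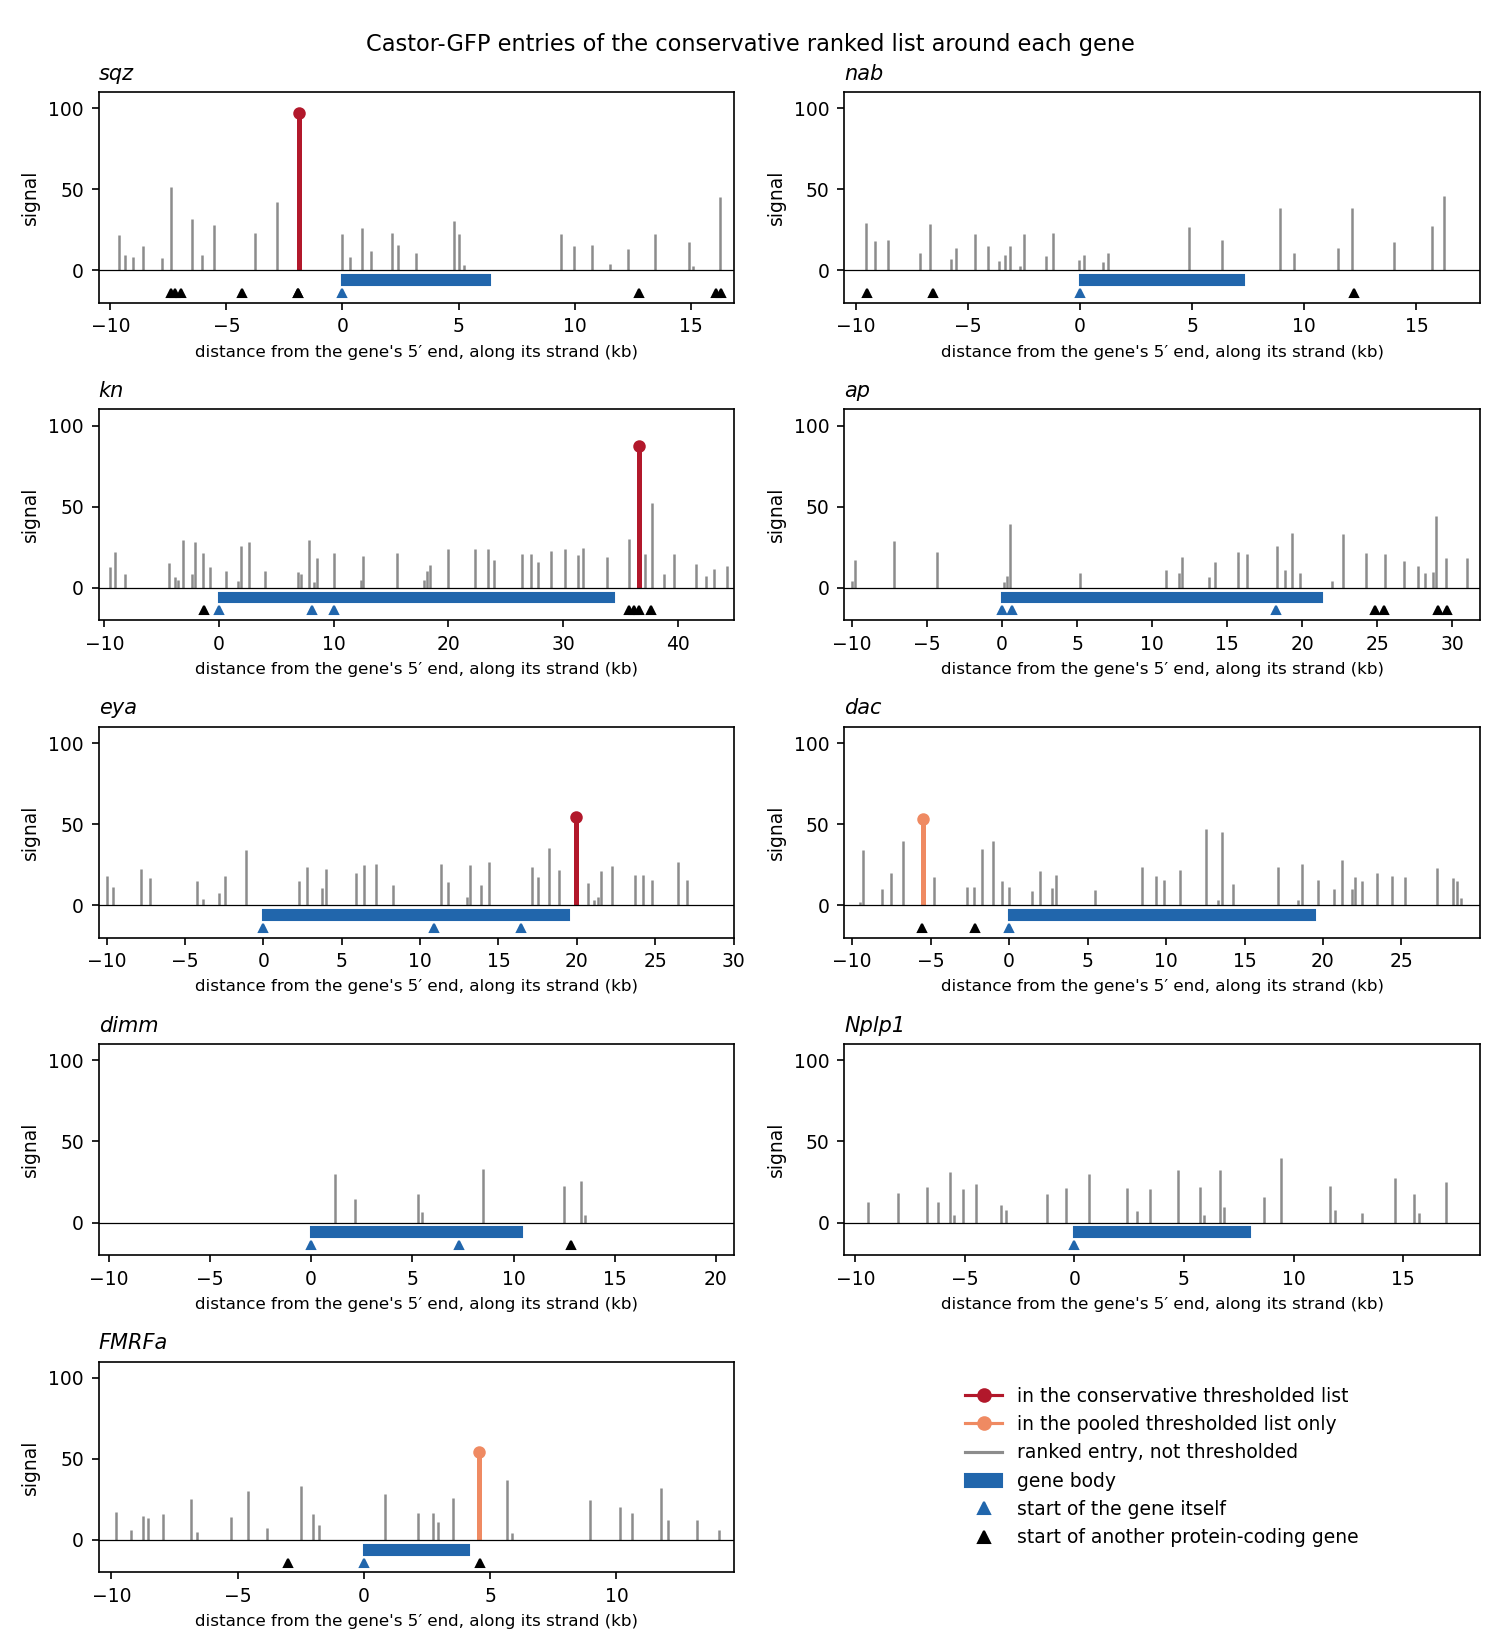
Entries of the conservative ranked list around each of the 9 genes, as vertical lines whose height is the authors' signal value, against the distance in kb from the gene's 5′ end along its own strand. Red entries are in the conservative thresholded list (sqz, kn, eya), orange ones only in the pooled one (dac, FMRFa), and triangles mark starts; no coloured entry stands over a blue gene body.

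Of the genes that turn kn off late in the lineage, sqz had the strongest peak of the 9 genes and nab had none. Squeeze, the zinc-finger factor that with Nab ends kn expression in the later-born neurons, is encoded by sqz (FBgn0010768, chr3R:19164211-19170576, plus strand). Its peak at chr3R:19162205-19162514 had signal 97.2, which was rank 626 of 1880 conservative peaks, and a −log10 IDR of 3.53. The irreproducible discovery rate (IDR) measures how reproducibly an entry ranks in a pair of peak sets, and a −log10 value of 2, the threshold met by every peak of the thresholded lists, stands for a rate of 1 in 100. The summit lay 1851 bp upstream of the sqz start and 60 bp upstream of a start shared by Nsun5, a gene of the RNA methyltransferase family, and CG42359, both read in the opposite direction. Replicate 1 gave 38.0 and replicate 2 gave 59.0 at this place, with −log10 IDR values of 2.56 and 3.70 in their own lists. It was the only region at the 9 genes that passed the threshold in each replicate on its own. How many of all genes have such a region was not counted.

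A further region upstream of sqz passed in replicate 2 alone, at chr3R:19156706-19156975. Its summit lay 7370 bp upstream of sqz and 29 bp upstream of a start of CG11779, within the 5′ UTR of that gene's longer form. Replicate 2 had signal 43.4 with a −log10 IDR of 2.73, while the overlapping entry of replicate 1 had 8.09 with 0.62. The replicates thus differed most here among the regions with an entry in each, and the conservative ranked list gave the place a −log10 IDR of 0.09. This was the region with the G and C content of 61.4%.

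Nab, the cofactor that acts with Squeeze, is encoded by nab (FBgn0259986, chr3L:4153618-4160932, minus strand) and had no thresholded peak. The nearest conservative summit was 67.5 kb away and the nearest pooled one 44.2 kb. The strongest of its 29 entries in the conservative ranked list had signal 46.0 and a −log10 IDR of 1.52, lay 8925 bp past the 3′ end in a coding exon of CG32260, and had 21.2 in replicate 1 and 22.2 in replicate 2. The replicates were close there, yet 51.1% of all genes had a stronger entry within 10 kb.

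Among the selectors of cluster identity, kn had the strongest peak. The gene (FBgn0001319, chr2R:14772650-14807061, minus strand) has 3 starts and the longest body of the 9, with 34.41 kb. Its peak at chr2R:14770247-14770556 had signal 87.2, rank 774 of 1880, and a −log10 IDR of 3.30. The summit lay 2248 bp past the 3′ end of kn and 67 bp upstream of a start of BEAF-32, which encodes a boundary-element-associated DNA-binding protein, within an exon of the antisense RNA gene asRNA:CR42254. Replicate 1 had 35.2 with a −log10 IDR of 1.89, short of the threshold, and replicate 2 had 52.4 with 2.51. The body of kn itself held 29 ranked entries, of which the strongest reached 29.7.

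At ap (FBgn0267978, chr2R:5706202-5727525, minus strand), the gene that names the cluster, no thresholded peak lay within 247.0 kb in either combined list. The strongest ranked entry, 44.2 with a −log10 IDR of 0.96, lay in a coding exon of Cndp2, 7595 bp past the 3′ end of ap. Close behind, an entry of 39.6 lay 128 bp upstream of a start of ap, in an intron of its longest form, with 19.3 in replicate 1 and 16.2 in replicate 2 and a −log10 IDR of 0.77. It missed the threshold. The window around ap holds 21 annotated transposable elements, and their part in its entries was not tested.

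Eyes absent, a transcriptional cofactor with phosphatase activity, is encoded by eya (FBgn0000320, chr2L:6527447-6546976, minus strand). Its peak at chr2L:6526894-6527203 lay 398 bp past the 3′ end of the gene in intergenic sequence. The signal was 54.4, at rank 1609 of 1880, with a −log10 IDR of 2.39 in the conservative list and 2.60 in the pooled one. Replicate 1 gave 31.5 and replicate 2 gave 26.9, with −log10 IDR values of 1.61 and 1.13, so the region passed only in the lists that combine both. Inside the body the strongest entry reached 35.1, in a coding exon, with 17.4 and 20.3 in replicates 1 and 2.

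Dachshund, a nuclear cofactor related to the Ski and Sno proteins, is encoded by dac (FBgn0005677, chr2L:16466512-16485998, minus strand). Its pooled peak at chr2L:16491334-16491643 had signal 52.9 and a −log10 IDR of 2.09, just past the threshold, and 1.59 in the conservative ranked list, just short of it. The summit lay 5491 bp upstream of dac and 51 bp upstream of Tpr2, a gene for a tetratricopeptide-repeat cochaperone. Replicate 1 had 27.9 and replicate 2 had 20.1, with −log10 IDR values of 0.47 and 0.07. Of the entries inside the 9 gene bodies the strongest was that in the dac coding exon printed above, with signal 47.0, 23.1 in replicate 1, 22.5 in replicate 2 and a −log10 IDR of 1.69. The nearest conservative peak to dac, with signal 111, was 14.6 kb upstream and also had a start of Tpr2 as the nearest.

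Dimmed, the basic helix-loop-helix factor of peptidergic cells, is encoded by dimm (FBgn0023091, chr2L:21331756-21342155, plus strand), whose strongest entry in the conservative ranked list was the lowest of the 9 genes. The conservative ranked list had 8 entries in its window, 0.263 per kb, where the other 8 genes had between 0.726 and 1.18 per kb. Its highest signal was 33.2, in a coding exon of dimm, with a −log10 IDR of 0.14, and 78.5% of all genes had a stronger entry. Its window holds 18 annotated transposable elements, and their part in the low number was not tested. The nearest conservative summit was 287.8 kb away and the nearest pooled one 28.9 kb.

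The neuropeptide genes are the final targets of the cascade. Nplp1 (FBgn0035092, chr2R:25032377-25040377, plus strand), which encodes a neuropeptide precursor, had no thresholded peak, and the nearest conservative summit was 62.8 kb away and the nearest pooled one 12.5 kb, with signal 50.1. The strongest entry in its window, with signal 39.5, lay 1426 bp past its 3′ end in a coding exon of gsb-n and rested largely on replicate 2, which had 32.5 against 6.71 in replicate 1. Its −log10 IDR was 0.09.

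FMRFa (FBgn0000715, chr2R:9906294-9910457, plus strand) encodes the FMRFamide precursor and is the shortest of the 9 genes. Its pooled peak at chr2R:9910681-9910990 had signal 54.4 and a −log10 IDR of 2.09, 379 bp past the 3′ end of FMRFa and 57 bp upstream of Etf-QO, which encodes an electron-transfer oxidoreductase of mitochondria. Replicate 1 had 36.2 with a −log10 IDR of 2.25 and passed alone, whereas the ranked list of replicate 2 had no entry that overlapped it. The pair of peaks behind the entry in the conservative ranked list had signals of 36.2 and 19.1, and in that list the side with 19.1 matched positions of replicate 2 entries and never of replicate 1. The conservative ranked list gave the region 1.53. The peaks of eya and FMRFa thus had the same signal of 54.4, and of these eya, with like values in the replicates, passed in the conservative list while FMRFa did not. In the conservative ranked list eya, with 2.39, was thus the weakest entry past the threshold at the 9 genes, and the nearest below it were the dac coding exon (1.69), the dac region beside Tpr2 (1.59), FMRFa (1.53) and nab (1.52).

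**Figure D2:**
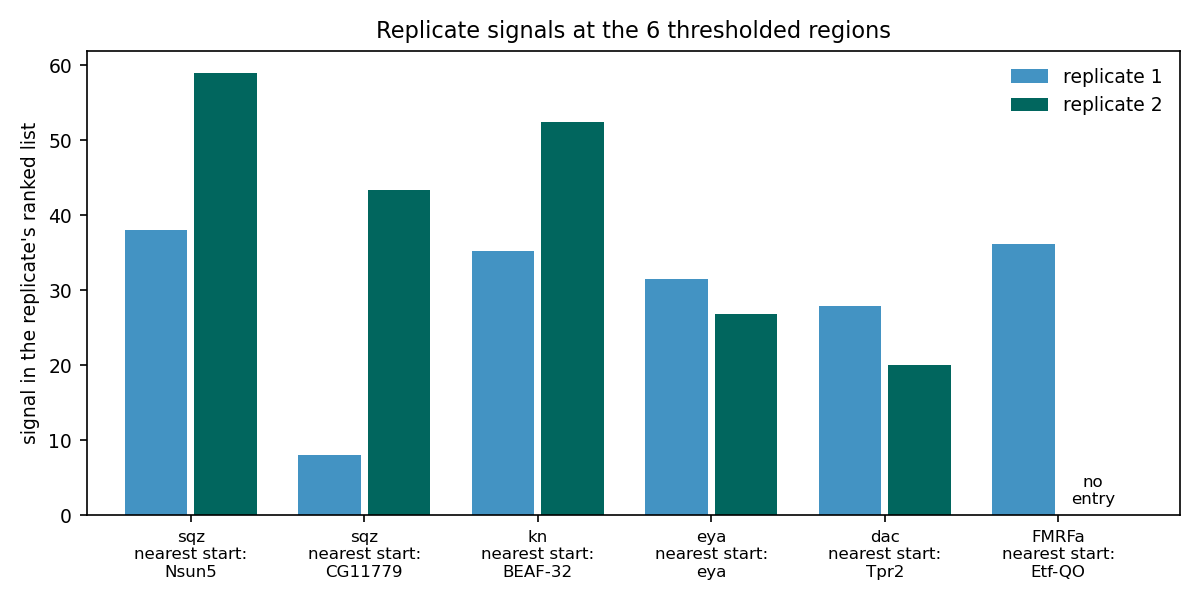
Signal of each replicate's own ranked list at the 6 thresholded regions, with the gene and the nearest protein-coding start named under each pair of bars (1 value a bar, signal in the authors' units). The sqz region beside Nsun5 had 38.0 and 59.0, the region beside CG11779 had 8.09 and 43.4, and at FMRFa replicate 2 had no entry.

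Entries below the threshold were found around all 9 genes. The conservative ranked list, which keeps entries of low reproducibility, had 286 entries in 311.0 kb. This makes 0.92 per kb, against 0.761 over the full length of all chromosome arms, Y included. The windows lie around genes while the arms also hold DNA away from genes, so these values are no measure of an excess. Among the 286 entries, 3 were the peaks of sqz, kn and eya and 283 lay below the threshold. In the whole list 1951 of 105251 entries had a −log10 IDR of at least 2. The 286 rested on 262 distinct pairs of replicate entries. The ranked list of replicate 1 gave 0.553 per kb against 0.424, and that of replicate 2 gave 0.717 against 0.643. Of the 286 entries, 111 lay in the gene bodies. A −log10 IDR of at least 1 was reached by 11, of which 3 were at FMRFa, 2 each at nab, eya and dac and 1 each at sqz and kn. The windows of ap, dimm and Nplp1 had none, and the share over the whole list was not counted. At FMRFa 2 of the 3 rested on the same pair of replicate entries, so by distinct pairs it had 2 like nab, eya and dac.

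**Figure D3:**
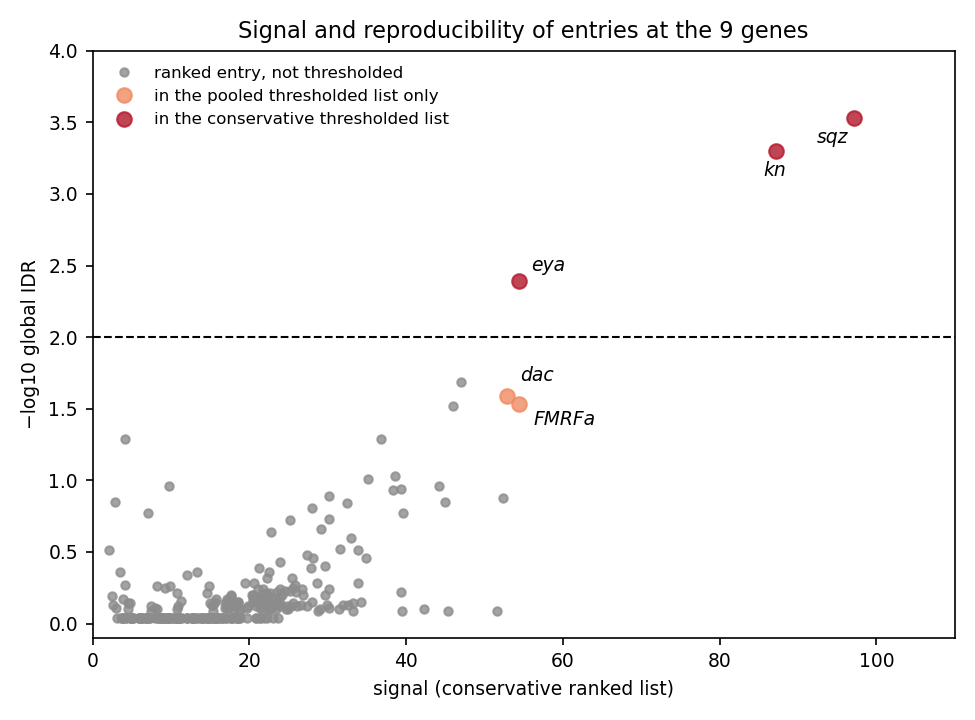
Signal (x axis, authors' units) against −log10 IDR (y axis) of the 286 conservative ranked entries at the 9 genes, with the threshold of 2 dashed. The sqz, kn and eya peaks stand above the line, dac (1.59) and FMRFa (1.53) just below it, and 275 entries have a value under 1.

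The order of the genes by their strongest ranked entry was sqz, kn, eya and FMRFa, dac, nab, ap, Nplp1 and dimm. The median of the 9 values was 52.9, against 47.4 over all genes, and in the replicates it was 27.9 against 26.3 and 26.9 against 26.5. The 9 genes have a median body of 10.4 kb against 2.16 kb, so their windows are wider. No median over genes of like length was taken, so these values show no higher signal at the 9 genes. In the list of each replicate sqz came first, followed by FMRFa (36.2) and kn (35.2) in replicate 1 and by kn (52.4) and Nplp1 (32.5) in replicate 2. The lower genes kept no fixed order: nab, ap and dimm had 21.2, 23.9 and 21.3 in replicate 1 and 22.4, 23.1 and 22.8 in replicate 2, so that nab and not dimm was the lowest in each. In the conservative ranked list the strongest entry lay in the gene's own body only at dimm, and at sqz, kn, dac and FMRFa it lay within 100 bp upstream of a neighbour's start. Taken alone, replicate 1 had the same placement at these last 4 genes, but its strongest entry at dimm lay 4166 bp upstream and that at Nplp1 in the gene body. In replicate 2 it held at sqz and kn, while the strongest entries at dac and FMRFa lay 1211 and 1109 bp downstream of the starts of Tpr2 and Etf-QO. How often the strongest entry lies in the body or beside a neighbour's start over all genes was not counted, so this placement is no trait of these genes.

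**Figure D4:**
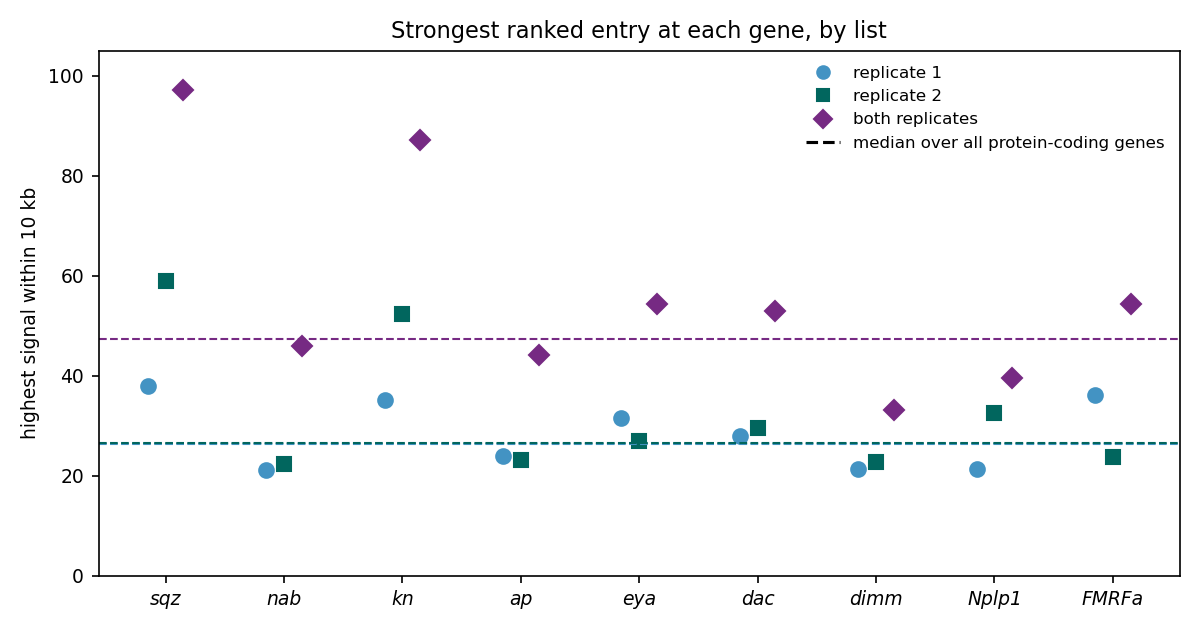
Highest signal within 10 kb of each gene (authors' units) in the ranked list of replicate 1 (circles), of replicate 2 (squares) and of both replicates (diamonds, conservative ranked list), with dashed lines at the medians over all protein-coding genes. The lists are not scaled to each other; sqz leads in each, and nab, ap and dimm lie under all 3 lines.

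How often the replicates met at these genes was counted over the ranked lists. Of 172 entries of replicate 1 in the 9 windows, 95 (55.2%) overlapped an entry of replicate 2, against 58.0% over the chromosome arms. The share was highest at eya, with 17 of 22 (77.3%), and nab, with 9 of 13 (69.2%). It was lowest at ap, with 3 of 16 (18.8%), and dimm, with 3 of 10 (30.0%). Both genes have many transposable elements in their windows, whose part in the low share was not tested. Summits of overlapping entries lay a median of 84 bp apart, against 70 bp over the arms.

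The ranked entries lay more often in coding exons and less often in intergenic DNA than the peaks. Coding exons held 74 of the 286 summits (25.9%), whereas they make up 15.5% of the bases in these windows. Over all ranked entries the share was 27.5%, so the genes of the cluster did not stand out in this, and among all conservative peaks it was 1.60%. Intergenic DNA held 22.4% of the 286 summits, 26.5% of all ranked entries and 46.0% of all conservative peaks. Introns held 42.7% of the 286 summits and 49.3% of the bases, and 40.2% of all conservative peaks.

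The wider cascade was followed with a list of 35 genes, all of which were matched. Of these, 16 had a conservative peak within 10 kb, 19 a pooled one, 11 one of replicate 1 and 13 one of replicate 2, to be read against the same backgrounds of 40.8%, 45.3%, 31.0% and 30.8%. Among the 7 temporal genes grh had a conservative peak, in its body, and the pooled list added cas itself (50.8, 372 bp downstream of a start). The Hox gene Antp had peaks in its body, the strongest with 53.6, and the Hox cofactor gene hth had one of 59.0 in the pooled list, while exd had none. Of the 4 genes for position and lineage, en alone had a pooled peak (48.2), and lbe, wg and gsb had none. Chi, which encodes the cofactor that joins Apterous molecules, had a peak of 63.4 that lay 48 bp upstream of the start of HSPC300.

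The BMP pathway, through which the FMRFa neuron reads its target, had conservative peaks near 4 of 6 genes, beside 40.8% of all genes, a count too small to read as a difference. Near gbb, the gene for the ligand, the strongest of 3 peaks had signal 414, with 150 in replicate 1 and 260 in replicate 2, and lay 1166 bp upstream of gbb but 95 bp upstream of eIF6. The peak in the body of wit, the gene for the type II receptor, had 143, with 77.4 and 66.7 in replicates 1 and 2. Its summit lay 1119 bp from a start of wit and about as far, 1109 bp, from a start of CG32259. The Smad genes Mad and Med had 94.5 and 316, of which the Mad summit lay 696 bp upstream of a start of Mad and the Med summit 1 bp upstream of a start of Mnat9. The type I receptor gene sax had a pooled peak of 60.0, 99 bp upstream of puml, and tkv had none. All of gbb, wit, Mad and Med passed in each replicate.

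Among genes that process and release peptides, 3 of 4 had a conservative peak, beside the same 40.8% and again too few to read as a difference. For Phm it was a peak beside another gene. The promoter of amon, which encodes a prohormone convertase, carried one of the strongest peaks near any gene named here, with signal 352 at 215 bp upstream of its own start, 143 in replicate 1 and 205 in replicate 2. Pal2, for an enzyme of peptide amidation, had 54.0 at 226 bp upstream of its own start, in the conservative list only. Near Phm, which encodes the other enzyme of amidation, the strongest peak (469) lay 6615 bp past its 3′ end, 241 bp upstream of Sox14. Cadps, for a factor of vesicle release, and the dopamine receptor gene Dop1R1 had none.

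Of 9 genes for division, cell cycle exit and Notch signalling, 6 had a conservative peak, again beside 40.8% of all genes and too few to read as a difference. They were E2f1 (66.1, body) and CycE (65.0, 37 bp upstream of ND-B17), which drive entry into S phase, pros (152, 85 bp upstream of Irbp), a determinant of the dividing neuroblast's daughter cell, and N (64.8), neur (96.2) and numb (124), the Notch receptor and regulators of its signal. CycE, N, neur and numb had 2 conservative peaks each, of which the strongest is given. In the list of replicate 1 CycE had a peak in its body, 512 bp upstream of a start of its own. In the list of replicate 2 the strongest N peak lay 28 bp upstream of a start of N. The peaks of pros, neur and numb also passed in each replicate. The Cdk inhibitor gene dap, the ligand gene Dl and spdo had none in any thresholded list.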

How the data were processed

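Chromatin immunoprecipitation of castor-GFP from whole embryos was read from 8 peak lists on dm6: a thresholded and a ranked list for each of 2 replicates and 2 of each kind that combine them. Each list derives from alignments of the replicates it covers, per the deposited README texts. No source used here names the aligner, the peak caller or its settings. The signal value is the authors' own measure of an entry's height, is not scaled between lists, and served to describe and rank entries within a list. The score column of the deposited lists, at most 1000, is the authors' scaled IDR and was not used for results. The −log10 global IDR was deposited in the ranked lists. On the files, every thresholded peak was also a ranked entry and had a −log10 IDR of 2 or more. About 9 in 10 thresholded peaks, and nearly all ranked entries, share the width of their list (270, 304 or 310 bp), so their summits are centres of fixed windows. Read totals are not in the lists, so depth is unknown and no interval that needs it is given.

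Summits were placed on the Ensembl release 115 annotation (BDGP 6.54), whose arm lengths equal those of dm6. Nearest starts are those of protein-coding transcripts, and sequence was read from the RefSeq assembly of the same build. Overlap between lists was at least 1 bp. Shares of all genes or peaks are given as background. With 1 group of 2 replicates no test was made. Counting was checked on simulated entries. Python 3.11.15, numpy 2.4.6, pandas 2.3.3 and matplotlib 3.10.9 were used. The genes, the list of 35 and the words were chosen with earlier results of these data known, 3 of the words from those results. Named genes are the 9 genes, genes at their thresholded entries, list members with a peak, and cas; CG32260, Cndp2 and gsb-n at strongest ranked entries, the neighbours of list members, and list members without a peak were named after their values were seen. Delta stands in the annotation for Dl. Alternatives were other margins, promoter and sequence windows, stricter thresholds, other overlap rules, the pooled list and single replicates.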

Additional observations from a re-analysis of the deposited data

How the results depend on the processing

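With summits in the gene bodies alone (0 kb), 0 genes, 0 peaks and 0 genes shared by both replicate lists were left. Of the 35 wider genes 9 were left instead of 16, beside 6.13% of all genes with a conservative peak in the body. No share over genes of like length was taken for them, so this count shows no excess. A margin of 20 kb gave 7 peaks at 4 genes, the fourth being dac, where 55.9% of all genes had a conservative peak. At that margin 3 genes had a peak in both replicate lists, and the share of all genes with one was not counted. The pooled list gave 5 genes and 5 peaks, and the gene with the nearest start left 1, eya. In the list of a single replicate there were 2 genes, with 2 to 3 peaks, 0.553 to 0.717 ranked entries per kb, and 11 to 13 of the wider genes. The sqz, kn and eya signals moved to 59.0, 52.4 and 26.9 without replicate 1 and to 38.0, 35.2 and 31.5 without replicate 2, on scales not shared between lists. Of 52 alternatives, 36 stayed near the reported value and 16 moved. A fall from 3 genes to 2 was scored as near, so the 36 do not show that these small counts are stable. The single-replicate signals just given are among the 16. The number of promoter peaks was 0 under all alternatives tried. The mean G and C content at the 3 conservative peaks was 34.0% in windows of 51 bp and 31.2% with 100 bp on either side of the summit. No paired analysis was possible because there is 1 group. Depth is unknown, so the absence of a peak does not show the absence of binding, least of all in whole embryos where few cells belong to the cluster.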
